A study of Mus musculus with 6 samples.

Results

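The Tcf1 immunoprecipitations from natural killer (NK) cells were compared between mice with an intact Tcf7 gene (WT, Tcf7+/+, strain B6) and mice without it (KO, Tcf7-/-, strain B6.129 Tcf7Tm1Cle). These are 2 of the 6 libraries of the series, chosen by antibody and genotype, and their peak lists hold 866 peaks in WT and 5139 in KO. Tcf7 encodes Tcf1, so the KO list shows which regions were called as peaks with this antibody in cells that lack its target. Many of those calls were weak, as described below. All cells came from the spleen and had been activated for 5 days with IL-2 (500 ng/mL), a cytokine on which NK cells proliferate. Chromatin was cross-linked for 10 minutes in 1% formaldehyde before precipitation. Strain background differs along with genotype, so the 2 cannot be told apart here. The labels do not say how many mice gave each library. H3K4me3 libraries of the same genotypes (13771 peaks in WT, 11074 in KO) serve below as a map of this histone mark, which is found at active promoters. The input libraries were not analysed here. With 1 library a genotype there are no replicates, and none of the differences described was tested.

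Tcf1 belongs to the Tcf/Lef transcription factors, which bind short DNA motifs with the core CTTTG and can recruit beta-catenin, the coactivator of Wnt signalling. Without beta-catenin they can bind Groucho corepressors. Axin2, Nkd1, Lgr5, Rnf43 and Tnfrsf19 are known Wnt target genes, and several of their products dampen or tune the pathway. In lymphocytes Tcf1 is known for its part in early T cell and NK cell development.

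Promoter windows under WT Tcf1 peaks are shown here because the highest-scoring peaks called in WT and not in KO include several at transcription start sites (TSSs). Those of Axin2 and Cyb5r4 belong to the highest-scoring peaks, and the other 3 hold Tcf/Lef motif matches. The 5 sequences are RefSeq windows of build GRCm38.p6, each 300 bases from 250 bases before a TSS to 50 after, printed 5′ to 3′ on the strand of the gene. Each lay wholly under a peak of score at least 100 that was called in WT alone. Capitals mark matches to CTTTGAA or to CTTTGAT or to CTTTGTA or to CTTTGTT on either strand.
Axin2 (chr11:108920099-108920398, plus strand): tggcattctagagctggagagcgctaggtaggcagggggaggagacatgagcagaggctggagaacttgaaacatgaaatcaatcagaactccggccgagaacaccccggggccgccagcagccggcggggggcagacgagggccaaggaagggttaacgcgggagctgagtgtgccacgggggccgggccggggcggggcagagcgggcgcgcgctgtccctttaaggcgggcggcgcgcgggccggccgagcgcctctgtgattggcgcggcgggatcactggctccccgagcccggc
Cyb5r4 (chr9:87021779-87022078, plus strand): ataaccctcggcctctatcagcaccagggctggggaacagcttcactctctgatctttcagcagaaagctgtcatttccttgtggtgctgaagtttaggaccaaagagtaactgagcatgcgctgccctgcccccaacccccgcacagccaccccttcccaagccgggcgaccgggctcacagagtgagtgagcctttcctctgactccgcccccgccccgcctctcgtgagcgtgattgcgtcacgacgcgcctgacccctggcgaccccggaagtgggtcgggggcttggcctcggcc
1190007I07Rik (chr10:82623179-82623478, minus strand): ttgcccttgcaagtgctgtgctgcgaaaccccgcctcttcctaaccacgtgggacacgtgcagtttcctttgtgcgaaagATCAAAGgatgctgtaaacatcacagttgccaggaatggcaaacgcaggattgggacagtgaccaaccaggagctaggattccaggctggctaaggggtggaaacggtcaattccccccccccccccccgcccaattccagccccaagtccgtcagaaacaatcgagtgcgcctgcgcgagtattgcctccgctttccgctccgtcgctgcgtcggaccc
Zfp142 (chr1:74587979-74588278, minus strand): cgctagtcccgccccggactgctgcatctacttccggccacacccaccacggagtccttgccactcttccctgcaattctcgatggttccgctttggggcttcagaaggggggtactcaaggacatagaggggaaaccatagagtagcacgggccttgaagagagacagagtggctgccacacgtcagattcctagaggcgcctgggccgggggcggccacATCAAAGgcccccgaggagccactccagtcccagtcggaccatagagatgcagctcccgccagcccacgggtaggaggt
Gm41168 (chr14:61056512-61056811, plus strand): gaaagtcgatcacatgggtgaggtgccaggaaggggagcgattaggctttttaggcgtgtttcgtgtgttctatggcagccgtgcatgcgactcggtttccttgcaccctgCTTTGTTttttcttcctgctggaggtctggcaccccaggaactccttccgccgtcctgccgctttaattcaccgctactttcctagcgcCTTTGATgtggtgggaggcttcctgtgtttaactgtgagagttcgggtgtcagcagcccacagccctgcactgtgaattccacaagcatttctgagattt

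The Gm41168 window held 2 matches, starting at bases 112 and 201 of the window, and it lay under the peak 9.54 kb from Tnfrsf19. Windows of 1190007I07Rik and Zfp142 held 1 match each, starting at bases 81 and 222. No match stood in the Axin2 and Cyb5r4 windows, nor in the Tcf7 window. That says only that these letters are not in these 300 bases, and the Axin2 peak itself was 1518 bp long. Of all 32851 windows in the RefSeq table, 16.9% held a match. Windows touched by peaks called in WT alone held one in 6 of 30 cases (20%), and those touched by peaks called in KO alone in 16 of 96 (16.7%). Under WT-only peaks of score at least 100, 4 of 9 windows held one. The Zfp142 and Bcs1l windows overlap and share the same 7 bases, so the matches belong to 3 of 8 peaks. Under KO-only peaks of that score, 1 of 4 windows held one, at 1 of 3 peaks. These numbers are too small to compare. The other WT windows with a match were those of Sp9 (31 tags, score 53.4) and Kmt2d (35 tags, score 51.8). A match is a description of the sequence and not a measured binding site.

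The NK cell label was checked on the H3K4me3 libraries of the same cells, a histone mark of active promoters. All 7 NK markers (Ncr1, Klrb1c, Nkg7, Prf1, Eomes, Tbx21 and Gzma) were marked within 1 kb of their TSS in both genotypes, with 572 to 2434 tags in WT and 942 to 2930 in KO. Of the 6 T cell markers of known TSS, Cd3e (64 tags) and Cd3d (35 tags) were marked in WT and none in KO. Among B cell markers neither of the 2 of known TSS was marked, among myeloid markers Cd14 had 95 tags in WT, and among erythroid markers Klf1 had 264 in WT and 227 in KO. The weak T cell marks in WT stand beside the results below, and their part in them was not tested.

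The targeted gene came first. In WT, a Tcf1 peak at chr11:52282921-52283707 (GRCm38/mm10) covered the 5′ end of Tcf7, a minus-strand gene at chr11:52246527-52283383. It held 123 tags (exact Poisson interval 102 to 147) at a score of 479 and a fold enrichment of 13.1. In KO the nearest Tcf1 peak on the chromosome was 1366 kb away. A peak at the locus does not check the deletion itself. A second, weak WT peak (28 tags, score 58.2) lay 34.9 kb from the gene. Scores are p-values of the peak caller on a -10 log10 scale, and scores, fold enrichments and false discovery rates (FDRs) are the authors' values for each peak. All intervals given here are 95%. Those on tags and tag ratios cover counting error only, and those on shares and medians are taken over the peaks of a list. With 1 library a genotype, none covers differences between libraries. PCR copies were not identified, so intervals on tags may be too narrow.

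The KO list was longer, and its peaks were smaller. WT peaks held a median of 23 tags (lowest 13, highest 11097) and KO peaks a median of 14 (lowest 10, highest 11235). Median lengths were close, at 425.5 bp in WT and 419 bp in KO. In total the WT list held 74849 tags over 447.7 kb (167 tags per kb) and the KO list 129810 tags over 2482 kb (52.3 tags per kb). These are sums over called peaks, and the depth of the libraries is unknown here. Tags were concentrated in few regions, the 10 largest peaks holding 41.3% of WT tags and 20.8% of KO tags.

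Where the lists met, they met at the top. Of the WT peaks, 115 shared 1 bp or more with a KO peak (13.3%, exact binomial interval 11.1 to 15.7%), and these matched 115 of the KO peaks (2.24%, interval 1.85 to 2.68%). Among the 10 highest-scoring WT peaks 8 overlapped a KO peak, among the top 50 it was 32, among the top 100 it was 55, and among the top 200 it was 72. From the KO side the share was higher still, with 10 of the top 10, 47 of the top 50 and 67 of the top 100 overlapping a WT peak. At the bottom of the lists little was shared. For scores of 50 to 60 the share was 5.89% of 475 WT peaks and 0.396% of 3032 KO peaks. The highest WT scores thus included many regions also called with the antibody in cells without Tcf1.

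**Figure D1:**
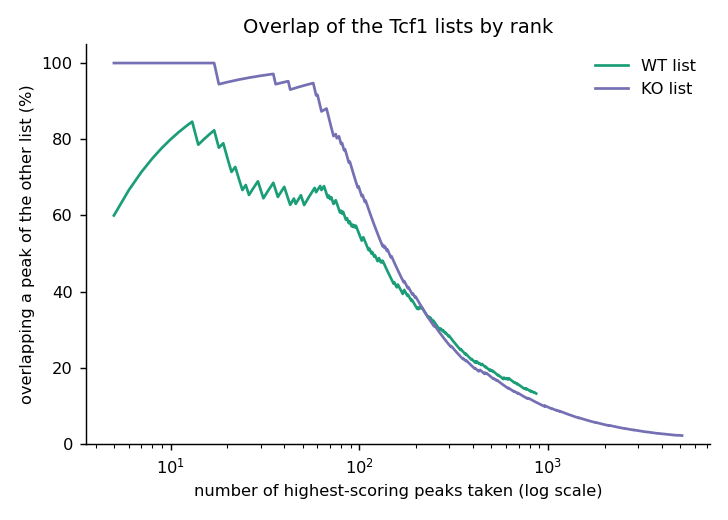
Share of the highest-scoring peaks of each Tcf1 list that overlap a peak of the other list (percent, vertical axis) against the number of peaks taken from the top by score (log scale, horizontal axis, from 5 peaks on). The KO line is at 94.0% for its top 50 peaks and the WT line at 64.0% there, and over the full lists they fall to 2.24% for KO and 13.3% for WT.

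At the regions called in both, the tags of the libraries were nearly equal at the median without any scaling. The median ratio of KO over WT tags was 1.03, a log2 ratio of 0.04 with an exact interval of the median from 0 to 0.09. Tags were taken over each peak as called, and the KO peak was the longer one in 72 pairs. Per kb of peak, the median log2 ratio was -0.18. Across the 115 pairs the log2 ratio ran from -2.30 to 1.04, with quartiles of -0.20 and 0.26. For 85 pairs the counting interval of the ratio spanned 0, for 10 it lay above and for 20 below. Tags of the 115 regions had a Spearman correlation of 0.958 between libraries, as a description over regions that share depth and background within each library. Summits were a median of 13 bp apart, and 89 of the pairs had summits within 50 bp. Fold enrichment was higher in KO at 101 of the 115.

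Named by the nearest protein-coding gene, 11 of the 15 highest-scoring shared regions lay 21.1 to 372 kb from any such gene, and 4 lay inside one. The largest, 101.5 kb from Esp38 on chromosome 17, held 11097 tags in WT and 11235 in KO. The next, on chromosome 14 and 114.0 kb from Gm2244, held 6745 and 5692, a log2 ratio of -0.24 (counting interval -0.30 to -0.19). In the authors' annotation, the regions nearest to Esp38 and Gm2244 each enclosed a whole annotated feature. Regions inside Filip1l (642 and 708 tags), Zc3h7a (619 and 621) and Cdk8 (601 and 603), and one 60.7 kb from Axin2 (790 and 803), were alike in both libraries within counting error. So were those nearest to Pex2 (710 and 719) and Rpp21 (337 and 359). The 2 regions on chromosome 4 nearest to Gm10573 were also alike, with 137 and 155 tags at chr4:122455051-122455410 and 143 and 160 at chr4:122122734-122123115. The region nearest to Ly6c2, a myeloid and lymphoid surface antigen gene, held 1959 tags in WT and 1244 in KO, a log2 ratio of -0.66 (counting interval -0.76 to -0.55).

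Among the 15 highest-scoring shared regions, one stood furthest from equal tags. At chr17:4626059-4626765, 367.5 kb from Arid1b, which encodes a subunit of a chromatin remodelling complex, the WT peak held 153 tags and the KO peak 52. The log2 ratio was -1.56 (counting interval -2.04 to -1.09). This was the peak of rank 4 in WT, with a score of 936 and the highest fold enrichment of the WT list (27.5, against 16.9 in KO). A larger deficit in KO was found at 1 pair, on chromosome 4 near Zfp978 (331 and 67 tags), where the WT peak was 3430 bp long and the KO peak 872 bp. In all, 4 pairs had a log2 ratio below -1 and 1 above 1. The pair above 1 lay near Pcdh7 and held 16 tags in WT and 33 in KO.

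**Figure D2:**
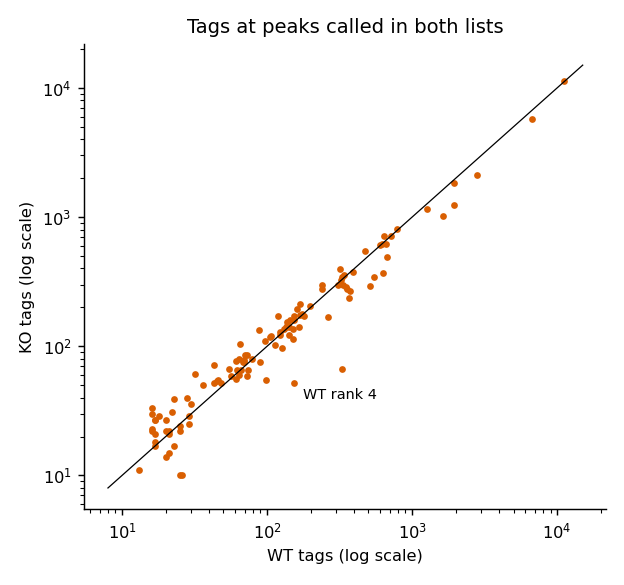
Tags in the KO peak (vertical axis, log scale) against tags in the overlapping WT peak (horizontal axis, log scale) for the 115 regions called in both lists, 1 point per region, with the line of equal tags. Points follow the line over the whole range, and the region of WT rank 4, with 153 WT and 52 KO tags, lies well below it.

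The peaks called in WT alone numbered 751, and few were strong. Their median was 21 tags, 34 of them (4.53%) held 100 tags or more, and 43 reached a score of 100. For peaks not called in KO the files give no KO tag count, so no ratio can be stated. The lowest tag count of a called KO peak was 10. Shared regions had near-equal tags at the median, but they are by definition called in both lists and do not stand for these peaks. Whether depth or the control kept a WT-only peak from being called in KO was not tested.

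Of the 43 peaks of score at least 100 called in WT alone, 6 were nearest to genes of the fixed Tcf/Lef and Wnt lists. These were Tcf7, described above, Axin2, Nkd1, Lef1, Lgr5 and Tnfrsf19. By gene, 6 of the 22 listed lay within 50 kb of such a peak, against 0.315% of all genes. The lists were composed with earlier results of these data known, so this count is not independent evidence. The Axin2 peak, at chr11:108920078-108921595, held 251 tags (interval 221 to 284) at a score of 1378 and a fold enrichment of 21.8, with its summit 63 bp from the TSS. The nearest KO peak was 90.0 kb away, the shared region described above. Axin2 encodes a scaffold that promotes the breakdown of beta-catenin. Inside Nkd1, an inhibitor of Dishevelled, a peak of 89 tags (interval 71.5 to 110) lay 43.1 kb from the TSS, with the nearest KO peak 81.8 kb away, on the other side of the gene's start and 32.6 kb from the gene. Upstream of Lef1, which encodes the closest relative of Tcf1 in lymphocytes, a peak of 113 tags (interval 93.1 to 136) stood 3.79 kb from the gene and 398 kb from any KO peak. Within Lgr5, a receptor gene for R-spondins, 54 tags (interval 40.6 to 70.5) were centred 1.16 kb from the TSS. The peak near Tnfrsf19 held 60 tags (interval 45.8 to 77.2). The Rnf43 peak was weaker (30 tags, score 73.2), and it touched the promoter window of another gene, Hsf5, while lying 45.5 kb from Rnf43.

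Other genes stood at equally strong WT peaks. The peak at Cyb5r4, a cytochrome b5 reductase gene, held 154 tags (interval 131 to 180) with a fold enrichment of 23.0, the highest among peaks called in WT alone. At 1190007I07Rik 132 tags were found, and at Zfp703, a transcriptional repressor gene, 109 tags. The peak of 85 tags near Fgf18, a fibroblast growth factor gene, ended 0.146 kb from the gene. One of 135 tags lay 5.01 kb beyond Hsp90b1, the gene of an endoplasmic reticulum chaperone. In the authors' annotation that peak overlapped the start of another feature, and H3K4me3 peaks of both genotypes lay under it. Inside Dhx34, a helicase gene, 85 tags were counted, and inside Pdzk1, a scaffold protein gene, 67. A peak 3.14 kb from Zc3hc1 held 58.

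Further down, the peaks of score 100 to 205 included one 4.11 kb from Rai14 (45 tags), one 7.22 kb from Pde5a, a phosphodiesterase gene (57 tags), and peaks at the TSSs of Zfp142 (59 tags) and Ism2 (53 tags). Chosen after their values were seen, 43 tags lay 2.79 kb from Pdcd1, the gene of the inhibitory receptor PD-1 (score 119), and 64 tags inside Tet3, a methylcytosine dioxygenase gene (score 106). The nearest KO peak to any of the 43 was 9.07 kb away, for the peak inside Zfr2, and the median was 154 kb over the 40 with a KO peak on the same chromosome or contig.

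Not all 43 were sharp peaks at single genes. One 9.84 kb from Gm39469 on chromosome 9 held 1648 tags at a fold enrichment of 2.56, and one on the X chromosome nearest to Asmt held 364 at 2.88. Others of 394 to 994 tags lay on unplaced contigs. For comparison, the 55 shared regions with a WT score of at least 100 had a median of 173 tags and a median fold enrichment of 7.58, against 59 tags and 9.18 for the 43.

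**Figure D3:**
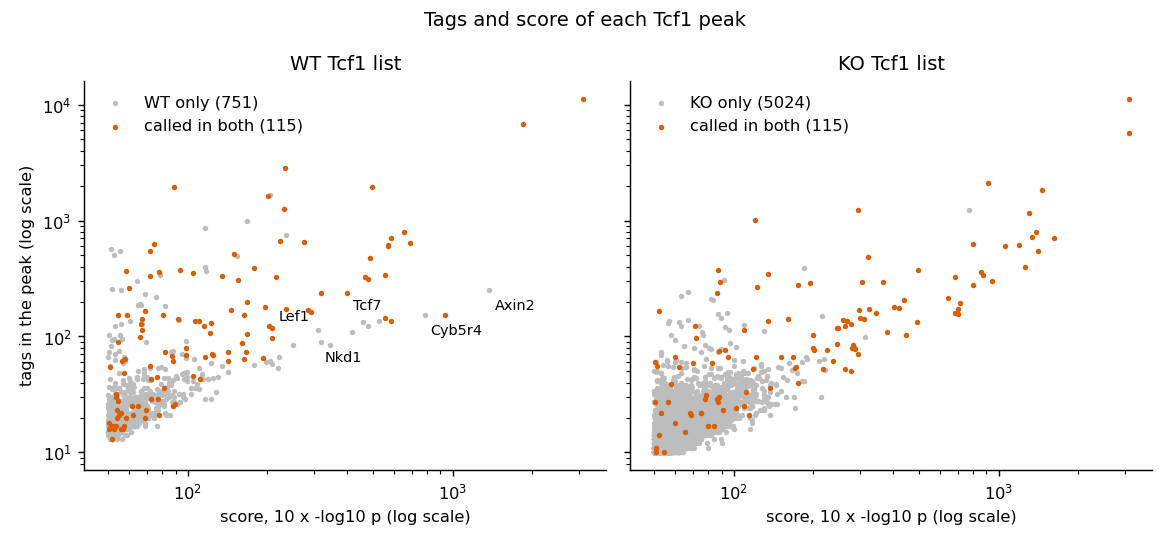
Tags of each Tcf1 peak (vertical axis, log scale) against its score (horizontal axis, log scale) in the WT list on the left and the KO list on the right, with peaks called in both lists in orange and peaks called in 1 list in grey. In WT, Axin2, Cyb5r4 and Tcf7 lie along the lower edge, with fewer tags for their score than most shared peaks. In KO most peaks above a score of 200 are orange, 33 of 40 at scores of 200 to 500 and 23 of 24 from 500 on.

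The deposited FDRs, turned into numbers of peaks, differed between the libraries. As background, the peak caller obtains an FDR by exchanging immunoprecipitate and control and dividing the number of peaks called in the exchanged direction by the number called in the usual one. Each FDR was multiplied by the number of peaks at or above the same score, which gives the number in the exchanged direction. In WT the product stayed at 1 for the first 29 peaks, down to a score of 275, so the FDRs of 100% and 33.3% at ranks 1 and 3 reflect the same single exchanged peak. At a score of 100 the product was 6 for 98 peaks, and over all 866 peaks it was 246. In KO it was 1 for the first 32 peaks, 8 for 64 peaks at a score of 200 and 50 for 90 peaks at 150. At a score of 100, with 265 KO peaks, the deposited FDR stood at 100%, which is its ceiling, so the product there is a lower bound. Of all KO peaks 2385 (46.4%) had an FDR of 100%, and over the full list the product was 3433 for 5139 peaks. The control track of each library was not given in the sources used here, and the part of the controls in this difference was not tested.

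**Figure D4:**
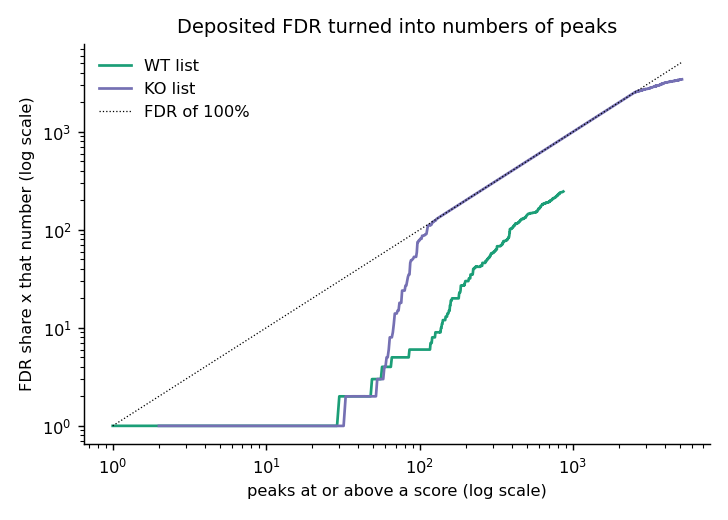
Deposited FDR, as a share, times the number of peaks at or above a score (vertical axis, log scale) against that number (horizontal axis, log scale) for both Tcf1 lists, with a dotted line where the FDR is 100%. The WT line ends at 246 for 866 peaks, and the KO line meets the dotted line before 265 peaks and ends at 3433 for 5139.

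Peaks called in KO alone numbered 5024, with a median of 14 tags, and 3869 of them (77.0%) held fewer than 20. Those of score at least 100 numbered 187. Their median length was 764 bp (interval 725 to 828), against 626 bp (interval 575 to 742) for the 43 in WT. They held 53.7 tags per kb against 186 in WT, but 7 of the 43 carried most of those WT tags. Over peaks of at most 300 tags, a limit set after seeing the data, the values were 44.5 for 185 KO peaks and 106 for 36 WT peaks. The strongest, 34.4 kb from Zfp825 on chromosome 13, held 1222 tags at a score of 770. The others among the 10 of highest score held 30 to 149 tags. They were nearest to Lrfn5 (98 tags, 690 kb away), Gm8032 (80, inside), Xlr5c (51), Slc4a3 (64), Csf2ra (149), Btbd35f27 (30), Itga9 (62, inside), Nbea (64) and Mup10 (67). None of the 22 genes in the Tcf/Lef and Wnt lists was within 50 kb of any of the 187 peaks, against 0.817% of all genes. At so low a share, that does not set these genes apart from all genes. A KO-only peak stood at the TSS of Ddx4, a germ cell helicase gene (41 tags, score 184).

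Fixed gene lists were then read against all 21900 protein-coding genes, of which 3.87% lay within 50 kb of a peak called in WT alone and 20.1% within 50 kb of one called in KO alone. Of 8 Tcf/Lef factors and partners, 2 had a WT-only peak (Tcf7 and Lef1). Of 14 Wnt feedback and target genes, 5 had one (Axin2, Nkd1, Lgr5, Rnf43 and Tnfrsf19). With peaks of score at least 100, 6 of these 22 genes had one, against 0.315% of all genes. Within 10 kb of any WT-only peak the count was 6 against 1.81%, and within 100 kb it was 7 against 6.5%. KO-only peaks lay near 3 of the 22, namely Ctnnb1 (11 tags), Nkd1 (16 tags) and Ccnd1 (15 tags), against the 20.1% of all genes. The lists were composed with earlier results of these data known, so their counts are not independent evidence.

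Among the fixed lists of NK cell function, granzymes and maturation factors had weak WT-only peaks within 50 kb. Of 10 granzymes, the cytotoxic proteases, 2 lay within 50 kb of a WT-only peak, against the 3.87% of all genes, and both counts come from 1 peak of 36 tags (score 55.1) 25.5 kb from Gzmb and 46.2 kb from Gzmc. KO-only peaks lay near 5 granzymes, against the 20.1% of all genes, and 4 of those counts (Gzmc, Gzmf, Gzmg and Gzmn) come from 1 peak of 19 tags and the other, Gzmk, from 1 of 15. Of 14 NK maturation factors 3 had a WT-only peak, against the same 3.87%, at Zeb2 (31 tags, score 80.1), Prdm1 (37 tags, score 52.5) and Tbx21 (25 tags, score 56.7), which encode regulators of terminal maturation. Near Ets1 the peak was in KO (14 tags). No WT-only peak lay within 50 kb of 10 other cytotoxic effectors, 15 NK cell receptors and 9 cytokine receptors, against 3.87% of all genes. At that share, none in lists this short does not set them apart from all genes. KO-only peaks lay near Tnfsf10 (12 tags), Unc13d (17), Rab27a (15) and the activating receptor gene Ncr1 (11). By list these were 3 of 10 effectors, 1 of 15 NK cell receptors and 0 of 9 cytokine receptors, against the 20.1% of all genes. None of the 58 genes in these NK lists was within 50 kb of a WT-only peak of score at least 100, which 0.315% of all genes were. At so low a share, none of 58 does not set these lists apart from all genes.

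Among markers of other cell types, those of T cells had WT-only peaks. It was 2 of 10, against the 3.87% of all genes, inside Cd5 (27 tags, score 61.0) and 22.8 kb from Foxp3 (33 tags, score 83.1), and Cd4 had a KO-only peak (16 tags). These stand beside the H3K4me3 marks of Cd3e and Cd3d found in WT alone, whose part in them was not tested. None of the B cell, myeloid and erythroid markers, 5 in each list, was within 50 kb of a peak of either kind. Against 3.87% and 20.1% of all genes, none in lists this short does not set them apart. Of 8 housekeeping genes none had a WT-only peak, against 3.87% of all genes. KO-only peaks lay near 3 (Hprt, Sdha and B2m), against 20.1% of all genes. Those peaks held 12 to 17 tags, on the scale of most KO-only peaks. Of the 847 genes near a WT-only peak, 235 (27.7%) were also near a KO-only peak, against the 20.1% of all genes. They are 5.33% of the 4410 genes near KO-only peaks, against the 3.87% of all genes near a WT-only peak.

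**Figure D5:**
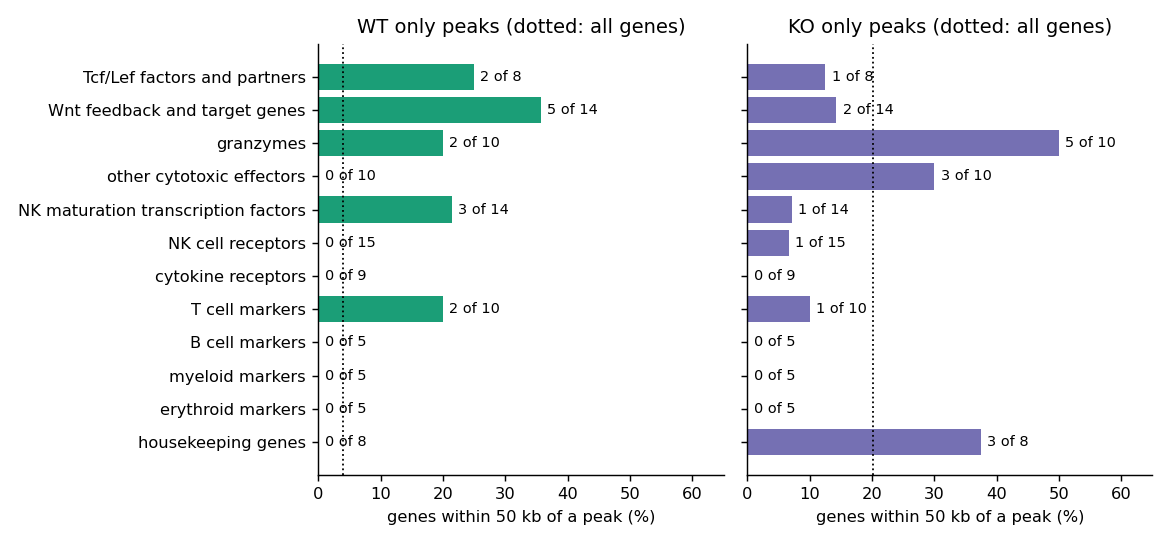
Share of each fixed gene list (percent, horizontal axis) within 50 kb of a Tcf1 peak called in WT alone (left) or in KO alone (right), with the number of genes beside each bar and the share of all protein-coding genes as a dotted line, at 3.87% and 20.1%. On the left the Wnt list reaches 5 of 14 and the Tcf/Lef list 2 of 8, and the granzyme (2 of 10), NK maturation factor (3 of 14) and T cell lists (2 of 10) also pass the dotted line. On the right the Wnt list reaches 2 of 14, and the granzyme, other cytotoxic effector and housekeeping lists pass the line.

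Of the WT-only peaks of score at least 100, the summit was within 1 kb of a protein-coding TSS for 9 of 39 on placed chromosomes (23.1%, interval 11.1 to 39.3%), against 26 of 697 of lower score (3.73%, interval 2.45 to 5.42%). Over all 736 WT-only peaks it was 35 (4.76%, interval 3.33 to 6.55%). None of these differences was tested. Among KO-only peaks it was 112 of 4994 (2.24%, interval 1.85 to 2.69%), and 5 of 186 (2.69%, interval 0.878 to 6.16%) at scores of at least 100. None of the 114 shared peaks on placed chromosomes had its summit there (interval up to 3.18%). Protein-coding genes were touched by 275 WT-only peaks (37.4%), 1802 KO-only peaks (36.1%) and 33 shared ones (28.9%). In the authors' annotation, 10 of 115 shared peaks enclosed a whole annotated feature (8.70%, interval 4.25 to 15.4%), as did 0 of 751 WT-only peaks (interval up to 0.490%) and 12 of 5024 KO-only peaks (0.239%).

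H3K4me3 peaks of both genotypes lay under 24 WT-only Tcf1 peaks (3.20%), among them those at Axin2, Cyb5r4, Tcf7, 1190007I07Rik and Zfp703, and under 21 KO-only peaks (0.418%). The WT-only peaks at Lef1, Nkd1, Dhx34, Pdzk1 and Lgr5 overlapped no H3K4me3 peak of either genotype. Of the shared Tcf1 peaks 13 (11.3%) overlapped H3K4me3 peaks of both genotypes. Taken by genotype, 62 shared peaks (53.9%) overlapped an H3K4me3 peak in WT and 15 (13.0%) one in KO. For KO-only peaks these counts were 197 (3.92%) and 91 (1.81%), and for WT-only peaks 37 (4.93%) and 25 (3.33%), so each class overlapped the WT marks more often.

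By chromosome the intervals of the shares of peaks overlapped between the lists, except on unplaced and unlocalized contigs. There the WT list had 16 peaks (1.85%) with 5474 tags, 7.31% of its tags, and the KO list had 31 peaks (0.603%) with 1345 tags, 1.04%. Chromosome 17 held the highest share of WT peaks also called in KO, with 10 of 32, and 20.9% of WT tags, most of them in the region near Esp38. The Y chromosome held 2 WT peaks and 18 KO peaks, and 9 and 6 H3K4me3 peaks, and neither list had a peak on the mitochondrial genome.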

How the data were processed

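Per the submitters' processing notes, Bowtie2 2.1.0 and MACS 1.4 were used, with the builds mm10, GRCm38 and GRCh37 named without a role. The control track and the settings are not given in the sources used here. Inserts of 100 to 400 bp were kept for sequencing, per the labels' protocols. The authors deposited 1 peak list per library, with tag counts not scaled to depth, a score (10 times the negative log10 p-value), a fold enrichment (a ratio over background) and an FDR in percent, per the file headers. The lists held 1030 rows in WT and 6268 in KO, which were reduced to distinct peaks, and starts were shifted to count from 1. Positions were read as GRCm38/mm10.

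Genes came from RefSeq (GRCm38.p6). A TSS was known for 20003 of 21900 protein-coding genes, 17492 from RefSeq promoter windows and 2511 from strands in the deposited lists. No genome sequence was used, so exons, introns and peak sequences were not analysed here. Intervals were exact binomial or Poisson at 95%. No p-values were computed. Where a tag ratio is given, tags were taken from the peak as called in each list. Alternatives were a minimum score of 100, summits within 200 bp, an overlap covering 50% of the shorter peak, a KO list cut to 866 peaks, autosomes and X alone, distances of 10 and 100 kb and a TSS window of 2.5 kb. A limit of 300 tags for tags per kb was added after seeing the data. Named genes were those nearest to the 15 highest-scoring WT-only peaks, the 10 highest-scoring KO-only peaks and the 10 highest-scoring shared peaks, Tcf7, members of the 12 lists (113 genes, all found) with a WT-only peak within 50 kb, and Wnt or Tcf/Lef members with a KO-only peak. Other names were chosen after their values were seen. Members and lists were chosen with earlier results of these data known. The overlap and motif searches were tested on simulated data. The tools were matplotlib 3.10.9, scipy 1.17.1, numpy 2.4.6, pandas 2.3.3 and Python 3.11.15.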

Additional observations from a re-analysis of the deposited data

How the results depend on the processing

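Overlap definitions and the set of chromosomes left the shares, the tag ratio at shared regions and the top-100 share within their intervals. Requiring a score of at least 100 in both lists raised the shared part to 54.1% of 98 WT peaks and 20% of 265 KO peaks. Cutting the KO list to 866 peaks gave 11.0% of either list. At scores of at least 100, the median length was 625.5 bp for WT peaks and 706 bp for KO peaks, the WT share on contigs and Y was 4.08% (2.08% for all), and 23.1% of WT-only peaks had their summit within 1 kb of a TSS. The 7 of 22 Tcf/Lef and Wnt genes near a WT-only peak became 6 at 10 kb, 7 at 100 kb and 6 at scores of at least 100. The 5 of 58 NK cell genes became 2 at 10 kb, 10 at 100 kb and 0 at scores of at least 100. No paired analysis was possible because each group has 1 library, and no library could be left out. Unknown depth and 1 library a genotype limit all comparisons.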
